A study of Homo sapiens with 24 samples.

Results

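The genes that encode receptors for the amino acid transmitters glutamate, GABA and glycine were followed in 3D aggregates of differentiating LUHMES neurons, with and without a short exposure to rotenone. The set was defined by the gene symbol of a probe's RefSeq transcript: every protein-coding gene beginning with GRIA, GRIK, GRIN or GRID (ionotropic glutamate receptors), GRM and a digit (metabotropic glutamate receptors), GABR and A, B, D, E, G, Q or R (GABA-A receptors), GABBR (GABA-B receptors), GLRA or GLRB (glycine receptors). Genes that share these letters but are not receptor subunits of these families, such as GRINA, and hyphenated symbols were left out. The rule gave 50 genes, and all 50 had a probe on the array, 73 of the 30275 probes that could be named. Of the 50 genes, 47 passed the filter on dim spots and were tested among 21239 genes. GABRA4, GLRB and GRM6 did not pass it.

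Glutamate excites neurons through ionotropic receptors, which are ion channels built from AMPA, kainate or NMDA subunits, and tunes release and excitability through metabotropic receptors coupled to G proteins. GABA inhibits through GABA-A receptors, pentameric chloride channels, and through GABA-B receptors, an obligate pair of G protein-coupled subunits, and glycine gates a related chloride channel. Midbrain dopaminergic neurons carry members of all these families, and the subunits in use change as neurons mature.

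LUHMES is a line of human fetal mesencephalic cells that carries a tetracycline-controlled v-myc transgene, and it differentiates into dopaminergic neuron-like cells when the transgene is switched off. All groups came from this 1 line and grew as shaken aggregates in differentiation medium with tetracycline, cAMP, GDNF and N2. On day 7 of differentiation the aggregates received 50 or 100 nM rotenone, an inhibitor of mitochondrial complex I, or the vehicle DMSO. With 24 h of exposure, RNA was taken when it ended (day 8), or after the medium was changed and the aggregates had recovered for 7 days (day 15). For the 12 h exposure the sample titles give the same days and the hours, not when it began or ended. Either day had 4 groups of 3 arrays: the vehicle, 50 nM with an exposure of 12 h, the same dose with 24 h, and 100 nM with 24 h, which gives 8 groups and 24 arrays. The labels do not say that the 3 samples of a group were separate cultures, so that p-values measure the spread between these samples.

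The values are normalized log2 signals, and differences are between means of 3 arrays. They can be compared within a gene, not between genes, whose probes differ in efficiency. In bulk RNA, fewer cells of a type and less RNA per cell cannot be told apart. Each slide held 1 array of every group, a replicate number is a slide number, and a group had the same place on each slide, whose part cannot be told apart from the group. Slide 1 was processed at another time, and the shift between it and slides 2 and 3 was corrected with ComBat (a correction of batch shifts). On slide 1, 67.3% to 82.4% of spots were well above background, against 50.9% to 62.4% on slides 2 and 3. Replicate 3 of 100 nM on day 15 had the largest residual spread of the 24 arrays, a log2 SD of 0.45.

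GRM2 and GRM3 encode the group II metabotropic receptors mGlu2 and mGlu3, which lower cAMP through inhibitory G proteins and often act as presynaptic brakes on transmitter release. They moved in opposite directions between the days in DMSO, and the 250 bases before their starts (RefSeq, GRCh38.p14) are printed for that reason, with each match to GGGCGG (the GC box bound by Sp factors), TGACG (the core of a cAMP response element) or TATAAA on either strand in capitals. GRM2 lies at chr3:51706818-51707067 and GRM3 at chr7:86643659-86643908, both on the plus strand.
GRM2: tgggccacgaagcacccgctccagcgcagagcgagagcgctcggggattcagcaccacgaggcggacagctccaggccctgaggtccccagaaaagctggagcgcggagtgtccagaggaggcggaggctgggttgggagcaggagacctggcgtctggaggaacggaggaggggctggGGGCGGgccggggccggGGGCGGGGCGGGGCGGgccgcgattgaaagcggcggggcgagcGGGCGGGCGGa
GRM3: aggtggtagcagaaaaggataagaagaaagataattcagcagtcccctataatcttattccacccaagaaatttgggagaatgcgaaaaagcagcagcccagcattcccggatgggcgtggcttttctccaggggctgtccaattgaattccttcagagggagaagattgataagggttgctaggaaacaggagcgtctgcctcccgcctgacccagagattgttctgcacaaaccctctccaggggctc
The GRM2 stretch held 6 matches to GGGCGG, overlapping ones counted, 27 CpG and 74.4% G and C. The GRM3 stretch held none of the 3 motifs, 5 CpG and 50.0% G and C. Over windows of 250 bases before and 50 after the start, GGGCGG was found in 44.6% of 27305 promoters, TGACG in 25.0% and TATAAA in 12.0%. RefSeq promoters matched 37 of the 50 receptor genes, of which 51.4%, 27.0% and 2.7% held these motifs. The 27305 promoters were not limited to protein-coding genes, as the receptor genes were. Their median share of G and C was 58.3%, against 64.7% in the 37. Genes without an entry included GABRA3, GABRA5, GABRD, GRIA3, GRID1, GRIK1, GRIN1 and GRIN2C. A match describes the letters only.

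In all, 15 genes gave a signal well above background, the scanner software's mark for a spot brighter than its surround, on all 24 arrays. They were GRIA2 and GRIA3 of the 4 AMPA subunits, GRIK1, GRIK2 and GRIK5 of the 5 kainate subunits, GRIN2C, GRIN2D and GRIN3B of the 7 NMDA subunits, GRID1 of the 2 delta subunits, and GRM2 and GRM4 of the 8 metabotropic receptors. On the GABA side they included both GABA-B subunits and, of the 18 GABA-A subunits, GABRA5. Of the 4 glycine receptor genes none was measured on all arrays. At the other end, 8 genes were not well above background on any array. They included GABRA4, GABRA6, GABRB2, GLRA2, GLRB, GRIN2B and GRM6. GRIN1, the subunit that every NMDA receptor contains, was measured on 8 of 12 arrays on day 8 and on 12 of 12 on day 15. GLRB, the beta subunit that anchors glycine receptors at synapses, was among the genes measured on no array.

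The remaining 27 genes were measured on some arrays. Of these, 23 were measured on more arrays on day 15 than on day 8, 2 on fewer (GABRR1 among them) and 2 on as many (GABRB1 and GRM5). Of these, 6 were measured on all 12 arrays of day 15 and on fewer of day 8, namely GABRD, GRIA4, GRIN1, GRIN3A, GRM3 and GRM8. Detection also went with the slide: 31 to 40 receptor genes were measured on each array of slide 1, 21 to 31 on slide 2 and 16 to 35 on slide 3. Within each slide the 27 genes were measured more often on day 15, in 83 against 73 of 108 readings on slide 1, 58 against 36 on slide 2 and 48 against 16 on slide 3. Over all spots, too, the share well above background reached higher values on day 15. On slide 1 it ran from 67.3% to 72.1% on day 8 and from 69% to 82.4% on day 15. The ranges were 53.6% to 59.7% and 55.7% to 60.8% on slide 2. They were 50.9% to 54% and 51.7% to 62.4% on slide 3. The counts of receptor genes are a description, with no test, and were not set apart from this shift over all spots.

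The 27 genes ranged from detection on few arrays to nearly full detection. GRIA1, an AMPA subunit, was measured on 0 arrays on day 8 and on 3 on day 15, while GRIK3, a kainate subunit, was measured on 7 and 11 and its partner GRIK4 on 4 and 11. GRIN2A, the NMDA subunit of mature forebrain receptors, was measured on 8 and 9 arrays. Of the metabotropic genes, GRM5 was measured on 4 and 4 arrays and GRM7 on 0 and 2. Among the GABA-A genes GABRD, the delta subunit of extrasynaptic receptors, was measured on 11 and 12 arrays and GABRB1 on 11 and 11. Lower down, GABRA2, GABRA3, GABRE, GABRG1, GABRG3, GABRQ and the rho subunits GABRR1, GABRR2 and GABRR3 were measured on 0 to 4 arrays on day 8 and 1 to 7 on day 15. The glycine receptor genes GLRA1 and GLRA3 were measured on 0 and 1 arrays on day 8 and on 3 and 3 on day 15.

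**Figure D1:**
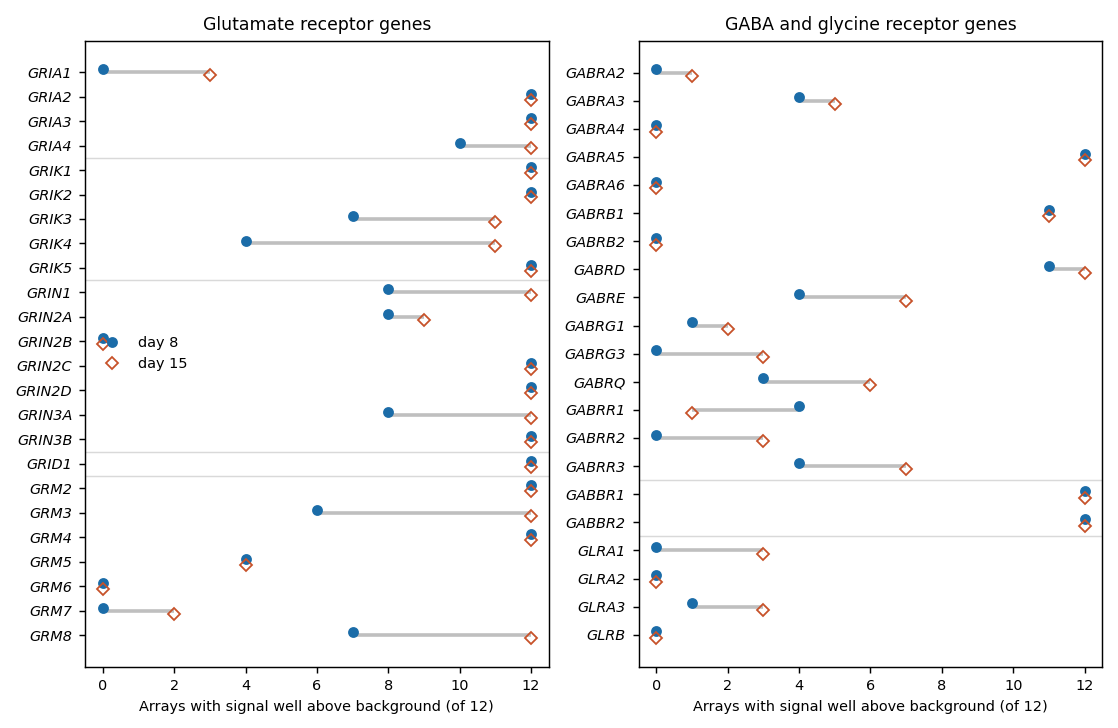
Number of arrays, of 12 a day, on which each of 45 of the 50 receptor genes had a signal well above background, for glutamate receptors (left) and GABA and glycine receptors (right), with filled circles for day 8 and open diamonds for day 15. The plot has 14 genes at 12 on both days, 7 at 0 on both days, and most of the others lie further right on day 15.

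The comparison of DMSO on day 15 with DMSO on day 8 asked how the receptor genes differ between the ages of the aggregates without rotenone. In DMSO 9 receptor genes rose and 4 fell, 13 of 47 or 27.7%, against 23.2% of all genes tested (10.1% up and 13.2% down). At an unadjusted p under 0.05 there were 17 of 47, against 33.7% of all genes. The rises were in GRIK1, GRM3, GRIN3A, GRIN3B, GRIA4, GABBR1, GRM8, GRID1 and GABBR2, and the falls in GRM2, GRM4, GRIN2D and GRIA2. Each family of glutamate receptors held at least 1 of them and so did GABA-B, while none of the 17 tested GABA-A subunits and none of the 3 tested glycine receptor subunits passed. Detection differed between these families as well. Of the 15 receptor genes measured on all arrays, 9 were called, or 60%. The like share over all genes measured on all arrays is not given, so that 60% cannot be set against 23.2%. Of the 18 GABA-A genes 2 were among these 15, and of the 4 glycine receptor genes 0. A missing call in a dim gene does not show that its level stayed the same. The median log2 difference was 0.19 over the 47 genes and -0.04 over all genes.

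GRIK1 encodes the GluK1 kainate subunit. Its DMSO signals were 5.44, 6.10 and 5.91 on day 8 and 9.04, 8.67 and 8.58 on day 15. The groups lay far apart, a log2 difference of 2.95 ± 0.19 (SE), 7.70-fold, with an adjusted p of 1.1e-09 (limma, Benjamini-Hochberg over all genes). Over all groups the 12 arrays of day 8 ran from 5.07 to 6.10 and the 12 of day 15 from 8.27 to 9.04. No other kainate gene passed in the fit of all arrays. GRIK4, a subunit that needs GluK1 to GluK3 partners, was not well above background on any DMSO array of day 8 and on 2 of 3 on day 15, at least 1.69-fold higher with an adjusted p of 0.075, and of 0.034 in the authors' normalized table and 0.046 with only the arrays compared. GRIK5, its close relative, had means of 9.13 ± 0.20 and 8.78 ± 0.22 (SD, n = 3) and an adjusted p of 0.33 in the limma fit.

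The NMDA subunits went both ways. GRIN3A and GRIN3B encode the GluN3 subunits, which bind glycine and lower the calcium flow of the receptors they join. GRIN3A read 5.83, 5.14 and 5.23 on day 8 and 7.44, 8.04 and 8.15 on day 15, a rise of 2.48 ± 0.38 (SE, adjusted p = 8.4e-05). GRIN3B read 5.12, 5.67 and 5.39 on day 8 and 7.02, 7.0 and 7.04 on day 15, a rise of 1.62 ± 0.19 (SE, adjusted p = 2.6e-06). In both genes every DMSO array of day 15 lay above every one of day 8. GRIN2D, whose GluN2D subunit belongs to early and interneuron receptors with slow closing, read 9.71, 9.80 and 9.54 on day 8 and 8.72, 9.0 and 8.63 on day 15. The log2 difference was -0.90 ± 0.16 (SE, adjusted p = 0.00039). GRIN2C averaged 5.35 ± 0.09 and 5.64 ± 0.08 (SD, n = 3), with an adjusted p of 0.16 in the limma fit, and its 2 probes differed, by 0.60 and -0.01. GRIN2C passed with the brightest probe (0.60, adjusted p = 0.0050), with the filter on spots well above background (0.60, adjusted p = 0.0028) and with a normexp offset of 50 (0.19, adjusted p = 0.036).

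Among the AMPA subunits GRIA4 rose and GRIA2 fell. GRIA4 read 5.09, 5.09 and 4.83 on day 8, the last not well above background, and 6.29, 6.23 and 6.45 on day 15, a log2 difference of 1.32 ± 0.21 (SE, adjusted p = 0.00013). GRIA2, the subunit that makes AMPA receptors impermeable to calcium, read 8.69, 9.0 and 8.79 on day 8 and 8.18, 8.46 and 8.12 on day 15. The difference was -0.57 ± 0.11 (SE, adjusted p = 0.0011), and its 2 probes gave -0.76 and -0.38. With slide 1 left uncorrected GRIA2 had an adjusted p of 0.14. GRIA3 had an adjusted p of 0.070, and its 3 probes gave 0.26, -0.40 and -0.65. GRID1, which encodes the delta receptor GluD1, a synaptic organizer that binds cerebellins, read 5.82, 5.89 and 5.82 on day 8 and 6.5, 6.60 and 6.18 on day 15, a rise of 0.58 ± 0.16 (SE, adjusted p = 0.012). Without DMSO replicate 2 of day 15 the rise of GRID1 was 0.49, with an adjusted p of 0.061.

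The metabotropic receptors parted as well. GRM3 read 4.76, 5.12 and 4.08 on day 8, the last not well above background, and 7.28, 7.67 and 7.32 on day 15. The log2 difference was 2.77 ± 0.32 (SE, adjusted p = 3.1e-06). GRM2, the other group II gene, read 11.03, 11.29 and 10.98 on day 8 and 9.97, 9.95 and 9.86 on day 15, a difference of -1.17 ± 0.098 (SE, adjusted p = 4.5e-08). GRM4 and GRM8 encode group III receptors, presynaptic autoreceptors that also lower cAMP. GRM4 read 11.12, 10.91 and 11.17 on day 8 and 10.08, 10.03 and 10.01 on day 15, a difference of -1.02 ± 0.14 (SE, adjusted p = 2.6e-05). GRM8 read 4.59, 4.29 and 4.48 on day 8, the last not well above background, and 5.33, 5.67 and 5.53 on day 15, a log2 difference of 1.06 ± 0.28 (SE, adjusted p = 0.0093), with 1.60 and 0.51 for its 2 probes.

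Both GABA-B subunits rose. GABBR1, which binds GABA, read 8.54, 8.98 and 8.73 on day 8 and 10.11, 9.91 and 9.87 on day 15, a log2 difference of 1.21 ± 0.11 (SE, adjusted p = 7.4e-08). GABBR2, which carries the receptor to the membrane and couples it to G proteins, read 11.95, 12.0 and 11.98 on day 8 and 12.28, 12.49 and 12.44 on day 15, a difference of 0.43 ± 0.078 (SE, adjusted p = 0.00048). Neither gene's groups overlapped. Of the GABA-A genes, GABRA5 came nearest to the threshold. It encodes the alpha5 subunit of extrasynaptic receptors and read 5.29, 5.24 and 4.84 on day 8 and 5.82, 5.93 and 5.63 on day 15. Its difference of 0.67 ± 0.26 (SE) had an adjusted p of 0.068, and of 0.018 with the replicate block. It passed under 6 alternatives in all, with the largest adjusted p (0.045) under the filter on spots well above background and the smallest (3.2e-05) with the processed signal. GABRD passed under 2, with only the arrays compared (adjusted p = 0.029) and with the processed signal (0.033). The other 16 tested GABA-A genes had log2 differences of -0.54 (GABRR1) to 0.61 (GABRB1), and GLRA1, GLRA2 and GLRA3 of 0.01, -0.13 and 0.49. At an unadjusted p under 0.05 the limma fit held 2 GABA-A genes and no glycine receptor gene.

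Over all groups, the 12 arrays of day 15 did not overlap the 12 of day 8 in 13 of the 47 receptor genes, against 12.9% of all genes. The 13 were GRIN2C and 12 of the 13 genes called from the DMSO arrays, which are among the 12 and 12, so that this count is a description only. The exception was GRIN3B, at 5.12 to 6.44 on day 8 and 6.33 to 7.24 on day 15, and GRM8 was nearest to overlap, at 3.86 to 4.73 and 4.73 to 6.17. Within the DMSO arrays 22 of the 47 receptor genes did not overlap between the days, against 40% of all genes.

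**Figure D2:**
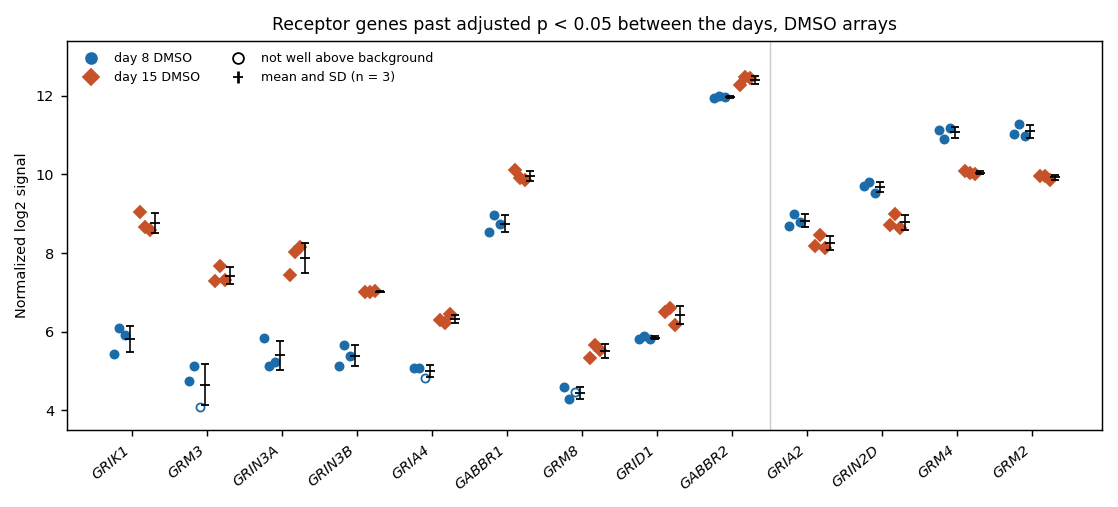
Normalized log2 signal of the 13 receptor genes called between the days, in the 3 DMSO arrays of day 8 (circles) and of day 15 (diamonds), with mean and SD beside them and open symbols for signals not well above background. In each of the 13 genes the days do not overlap, and levels should be compared within a gene only.

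Marker genes moved with the days too. All 10 neuron markers listed were measured on all arrays, and 7 of 10 dopaminergic markers were. In the neuron list 3 genes rose and 1 fell, and in the dopaminergic list 3 rose and 2 fell. Of the latter, tyrosine hydroxylase (TH) fell by 2.94 log2 units (SE 0.23, adjusted p = 2.2e-08) and the dopamine transporter (SLC6A3) by 2.07 (SE 0.27, adjusted p = 1.3e-05), while NR4A2, a transcription factor of these neurons, rose by 1.57 (SE 0.15, adjusted p = 2.3e-07). The log2 summed signal of the dopaminergic list was 11.05 to 11.13 on day 8 and 10.18 to 10.39 on day 15, and that of the neuron list 18.06 to 18.27 and 18.26 to 18.42. Of 8 genes of proliferating or progenitor cells, 5 fell and none rose, with SOX2 measured on no array and summed signals of 10.69 to 10.96 and 10.86 to 11.20. None of 5 astrocyte and none of 4 tested microglia markers was measured on all arrays, with summed signals of 6.39 to 6.86 and 6.0 to 6.20 on day 8 and of 6.49 to 6.74 and 6.08 to 6.32 on day 15, and 1 astrocyte gene (GJA1) fell. Of the oligodendrocyte list, 2 of 4 tested genes were (MBP and MOG), at 6.95 to 7.12 and 7.26 to 7.48. The called shares were 40% (neuron), 50% (dopaminergic), 62.5% (progenitor) and 20% (astrocyte), against 23.2% of all genes. TH, SLC6A3 and NR4A2 passed under all 17 alternatives. Other calls were less stable: the falls of GJA1, MKI67 and CDK1 were lost in 10, 10 and 9 of the 17. The rises of LMX1B, SNAP25 and PITX3 were lost in 8, 8 and 7. The part of the marker shifts in the receptor values was not tested.

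Genes that work with the receptors were read from 4 lists. Of 22 auxiliary subunits, which assemble with receptors and set their gating or placement, 8 rose and 2 fell. CBLN2, a cerebellin that links GluD receptors to neurexins, went from 9.26, 9.03 and 8.88 to 12.30, 12.44 and 12.38, a rise of 3.32 ± 0.10 (SE, adjusted p = 4.6e-14). LHFPL4, which holds GABA-A receptors at synapses, rose by 2.16 ± 0.11 (SE, adjusted p = 7.6e-11), and CBLN1 fell by 0.66 (SE 0.11, adjusted p = 0.00018). CNIH3, a cornichon that exports AMPA receptors, fell by 2.0 (SE 0.20, adjusted p = 3.9e-07). Of 22 tested scaffold genes 5 rose and 3 fell, led by DLGAP3 at 0.76 and SHANK1 at 0.89, and by SHANK2 at -0.80 and HOMER3 at -0.61. With scaling to the 75th percentile SHANK2 was at -0.73 with an adjusted p of 0.11.

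Of 16 tested transporters 1 rose and 3 fell. SLC1A6, a glutamate uptake carrier, was at 0.94 and had 1 of 3 day 8 arrays well above background. SLC17A6, the vesicular glutamate transporter VGLUT2, was at -0.45 with 12.85, 12.93 and 12.71 on day 8, and SLC6A9, a glycine transporter, was at -0.52. Of 13 genes of synthesis and breakdown 1 rose (GLS2, a glutaminase, at 0.84) and 3 fell, of which GLDC (glycine breakdown) was at -0.85 and SHMT1 (glycine and serine exchange) at -0.56. The called shares of the 4 lists were 45.5%, 36.4%, 25.0% and 30.8%, against 23.2% of all genes. SHMT1 had an adjusted p of 0.19 with scaling to the 75th percentile, SLC17A6 of 0.070 without DMSO replicate 1 of day 15, and SLC6A9 of 0.057 without DMSO replicate 3 of day 15.

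The comparisons of rotenone with DMSO on day 8 asked for the acute response. After 100 nM for 24 h, 3 of 47 receptor genes passed, or 6.38%, against 9.48% of all genes tested. GRM2 and GRIA3 fell and GRIN3B rose. After 50 nM for 24 h these 3 passed in the same directions and GRM3 also fell, 4 of 47 or 8.51%, against 8.02% of all genes. After 50 nM for 12 h GRIA3 alone passed, 2.13% against 5.52% of all genes. The 3 comparisons share the DMSO arrays of day 8, so that their values stand side by side and are not independent. At an unadjusted p under 0.05 there were 6, 6 and 3 of the 47, against 20.6%, 19.6% and 16.8% of all genes.

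GRM2 read 11.03, 11.29 and 10.98 in DMSO, 10.73, 10.98 and 10.66 after 50 nM for 12 h, 10.45, 10.61 and 10.47 after 50 nM for 24 h, and 10.43, 10.51 and 10.30 after 100 nM for 24 h. No array of the 24 h groups reached the DMSO arrays, and the 12 h arrays touched their lowest value. The log2 difference was -0.69 ± 0.098 after 100 nM (SE, adjusted p = 0.00015), -0.59 after 50 nM for 24 h (adjusted p = 0.00082) and -0.31 after 50 nM for 12 h (adjusted p = 0.071, and 0.047 with the replicate block). With the block, the 12 h comparison thus held 2 receptor genes in place of 1. The doses were not tested against each other.

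GRIA3, an AMPA subunit, read 5.46, 5.55 and 5.30 in DMSO and 4.93, 4.94 and 4.89 after 100 nM, a difference of -0.52 ± 0.10 (SE, adjusted p = 0.0026). It read 4.94, 5.09 and 5.11 after 50 nM for 24 h (-0.39, adjusted p = 0.021) and 5.05, 4.90 and 5.0 after 12 h (-0.45, adjusted p = 0.011). All treated arrays of day 8 lay below all DMSO arrays, and its 3 probes fell alike after 100 nM, at -0.39, -0.76 and -0.40. These 3 probes were well above background on 23, 19 and 21 of the 24 arrays. With scaling to the 75th percentile in place of quantile normalization, the 100 nM difference was -0.53 with an adjusted p of 0.32, and with the brightest probe alone -0.39 with an adjusted p of 0.13. With a normexp offset of 50 it shrank to -0.21 (adjusted p = 0.013). GRIA3 lost its call after 50 nM for 24 h without DMSO replicate 1 or 2 or treated replicate 1 (adjusted p of 0.073 to 0.11), and after 12 h without DMSO replicate 2 or treated replicate 2 (0.058 and 0.066). Of 17 alternatives, the call was lost in 5 after 100 nM, 10 after 50 nM for 24 h and 8 after 12 h. The largest adjusted p was 0.32, 0.52 and 0.35. Each comparison lost it with the processed signal, 75th percentile scaling, the brightest probe, no correction of slide 1, and slides 2 and 3 alone.

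GRIN3B read 5.12, 5.67 and 5.39 in DMSO, 5.97, 6.14 and 6.07 after 100 nM, 6.07, 6.44 and 6.01 after 50 nM for 24 h and 5.44, 5.57 and 5.63 after 50 nM for 12 h. Both 24 h groups lay above DMSO and the 12 h group lay within it. The differences were 0.67 ± 0.19 (SE, adjusted p = 0.028), 0.78 (adjusted p = 0.013) and 0.15 (adjusted p = 0.80). Leaving out any of DMSO replicates 1 and 3 or 100 nM replicates 1, 2 and 3 put the adjusted p of the 100 nM value at 0.057 to 0.15. The 100 nM call was also lost with a normexp offset of 50, and its difference ran from 0.34 to 1.05 over the alternatives. The 50 nM value after 24 h had an adjusted p of 0.079 without DMSO replicate 1 and of 0.073 without treated replicate 2.

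GRM3 was near background on day 8. It read 4.76, 5.12 and 4.08 in DMSO and 4.46, 3.06 and 3.02 after 50 nM for 24 h, with 2 and 1 of the 3 arrays well above background. The groups overlapped, and the difference of -1.14 ± 0.32 (SE) had an adjusted p of 0.035. After 100 nM it was -0.43 with an adjusted p of 0.53. Without DMSO replicate 1 or 2, or 50 nM replicate 2 or 3, the adjusted p of the 50 nM value was 0.11 to 0.17. In all, this call was lost in 9 of 17 alternatives, with an adjusted p of up to 0.24. The processed signal and the normexp offset of 50 were among them. The difference ran from -1.61 to -0.27.

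Other receptor genes did not pass on day 8 in the fit of all arrays. GRIK1 read 5.07, 5.63 and 5.17 after 100 nM against 5.44, 6.10 and 5.91 in DMSO (-0.53 ± 0.19, SE, adjusted p = 0.090). GRIK1 passed in the authors' normalized table (-0.69, adjusted p = 0.039), with the processed signal (-0.71, adjusted p = 0.0083), and without DMSO replicate 1 (adjusted p = 0.030) or 100 nM replicate 2 (adjusted p = 0.034). GRM8 was at -0.25 after 100 nM with an adjusted p of 0.73, and passed with the brightest probe (-0.66, adjusted p = 0.023) and with the filter on spots well above background (-0.66, adjusted p = 0.014). GABRA5 read 5.46, 5.96 and 5.37 after 100 nM against 5.29, 5.24 and 4.84, a difference of 0.48 ± 0.26 (SE) with an adjusted p of 0.32, and of 0.0082 with scaling to the 75th percentile and 0.0040 with the processed signal. GRIN2D was at 0.44 after 50 nM for 24 h, with an adjusted p of 0.11, and of 0.016 with the replicate block and 0.0070 in the authors' normalized table. GRIN2C passed with the filter on spots well above background alone, at -0.43 after 100 nM (adjusted p = 0.049) and -0.45 after 50 nM for 24 h (adjusted p = 0.041). GABRB2 and GRIN2B had p-values under 0.05 before adjustment after 100 nM but were measured on no array. None of the GABA-A, GABA-B or glycine receptor genes passed in any of the 3 limma comparisons. At an unadjusted p under 0.05 there were 1, 0 and 1 GABA-A genes (100 nM, 50 nM for 24 h and 50 nM for 12 h), and no GABA-B or glycine receptor gene. Groups did not overlap for 10, 12 and 7 of the 47 genes, against 28.5%, 28.1% and 23.6% of all genes.

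With the 2 arrays a group of slides 2 and 3 alone, none of the 47 genes passed in any of the 3 comparisons, and GRM2 after 100 nM was at -0.73 with an adjusted p of 0.055. Without any correction of slide 1, GRM2 passed after 100 nM and after 50 nM for 24 h and no other receptor gene passed.

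**Figure D3:**
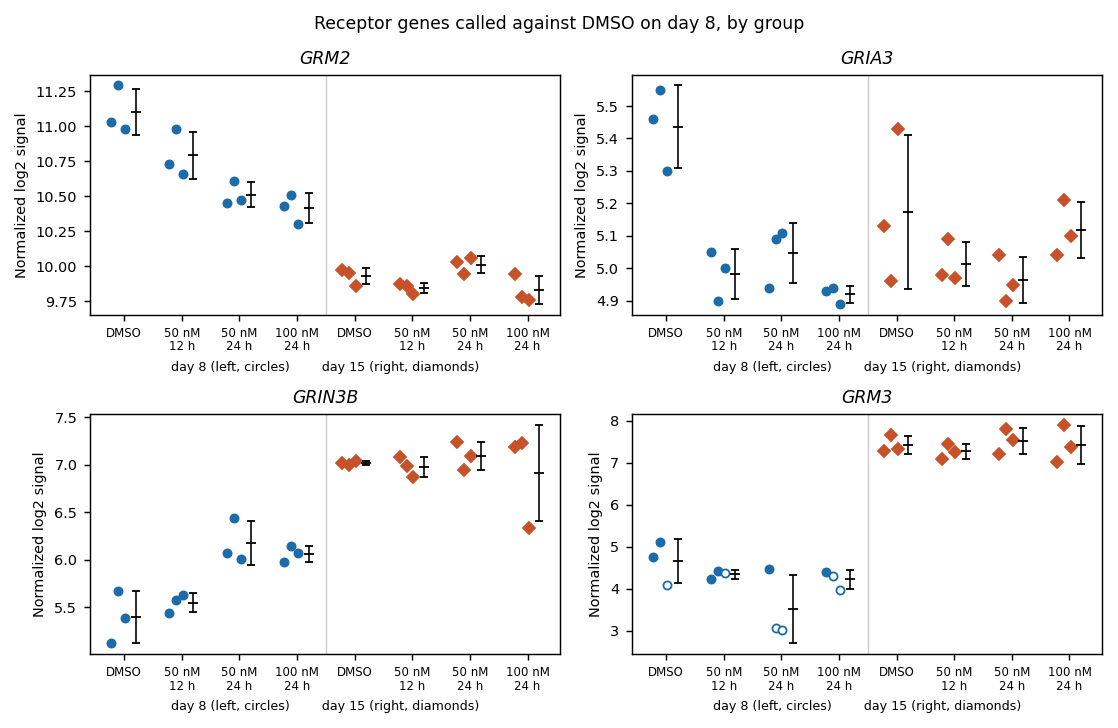
Normalized log2 signal of GRM2, GRIA3, GRIN3B and GRM3 in each array of the 8 groups, day 8 at the left of each panel (circles) and day 15 at the right (diamonds), with mean and SD beside them and open symbols for signals not well above background. On day 8 GRM2 and GRIA3 are highest in DMSO and GRIN3B is higher in both 24 h groups, and on day 15 the treated arrays of all 4 genes overlap DMSO.

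Neuron markers moved with 100 nM as well: 3 of 10 fell, MAP2 by 0.57 (SE 0.11, adjusted p = 0.0028, and 0.22 in the authors' normalized table), ELAVL4 by 0.51 (SE 0.12, adjusted p = 0.0072) and SNAP25 by 0.30 (SE 0.09, adjusted p = 0.041). The called share of this list was 30%, against 9.48% of all genes. SNAP25 lost its call when any 1 of the 6 arrays was left out (adjusted p of 0.061 to 0.18). All 3 markers lost their calls without correction of slide 1 and with slides 2 and 3 alone. ELAVL4 and SNAP25 also did with only the arrays compared. The log2 summed signal of the neuron list was 18.06 to 18.27 in DMSO and 18.02 to 18.05 after 100 nM. None of the dopaminergic, progenitor or glial markers passed. Their summed signals were 11.11 to 11.28, 11.15 to 11.33, 6.32 to 6.60 (astrocyte), 6.94 to 7.16 (oligodendrocyte) and 6.02 to 6.23 (microglia) after 100 nM, against 11.05 to 11.13, 10.69 to 10.96, 6.39 to 6.86, 6.95 to 7.12 and 6.0 to 6.20 in DMSO. The part of these shifts in the receptor values was not tested.

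In the 4 lists of partner genes, 5 genes fell after 100 nM on day 8 and none rose. CBLN2 read 9.26, 9.03 and 8.88 in DMSO and 8.50, 8.64 and 8.59 after 100 nM, a difference of -0.48 ± 0.10 (SE, adjusted p = 0.0040), and was 1 of 22 auxiliary subunits. DLG3, the scaffold SAP102 that binds NMDA receptors, fell by 0.37 (SE 0.074, adjusted p = 0.0030), and the adhesion protein NLGN1 fell by 0.45 (SE 0.13, adjusted p = 0.028), 2 of 22 scaffold genes. SLC6A9 fell by 0.71 (SE 0.14, adjusted p = 0.0033), 1 of 16 transporters, and GLDC fell by 0.54 (SE 0.14, adjusted p = 0.014), 1 of 13 genes of synthesis and breakdown. The called shares were 4.55%, 9.09%, 6.25% and 7.69%, against 9.48% of all genes. NLGN1 had an adjusted p of 0.093 to 0.15 without DMSO replicate 2 or 3 or 100 nM replicate 1 or 3, and GLDC of 0.057 to 0.091 without DMSO replicate 1 or 3 or 100 nM replicate 1. Without correction of slide 1, CBLN2, NLGN1 and GLDC lost their calls. With only the arrays compared, CBLN2, DLG3, NLGN1 and GLDC did. With slides 2 and 3 alone, CBLN2, DLG3, SLC6A9 and GLDC did. The largest adjusted p under the alternatives was 0.58 for NLGN1, 0.38 for GLDC, 0.30 for CBLN2, 0.19 for DLG3 and 0.14 for SLC6A9.

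The comparisons on day 15 asked what was left of the response after wash-out and recovery. No receptor gene passed in the limma fit after 100 nM for 24 h, 50 nM for 24 h or 50 nM for 12 h, and neither did any of the 21239 genes, 0% of them. At an unadjusted p under 0.05 there were 6, 1 and 4 receptor genes, while 7.21%, 3.28% and 3.47% of all genes reached it. Groups did not overlap for 3, 6 and 4 of the 47 genes, against 7.84%, 7.15% and 7.45% of all genes. GRM2 read 9.97, 9.95 and 9.86 in DMSO and 9.94, 9.78 and 9.76 after 100 nM, a difference of -0.10 ± 0.098 (SE, adjusted p = 0.85). GRIA3 was at -0.06 and GRIN3B at -0.10, both with an adjusted p of 0.93. GRIN3B read 7.18, 7.23 and 6.33 after 100 nM, and the low array was replicate 3, the array with the residual SD of 0.45.

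GRIK4 had the smallest p of the receptor genes after 100 nM on day 15. It read 5.17, 4.69 and 4.49 in DMSO, the last not well above background, and 4.97, 5.57 and 6.66 after 100 nM, so that the groups overlapped. The difference was 0.95 ± 0.30 (SE) with an adjusted p of 0.56. The array at 6.66 was replicate 3 of 100 nM, whose residual SD was 0.45, and without it the GRIK4 difference was 0.48 with an adjusted p of 1.0. GRIA4 read 6.29, 6.23 and 6.45 in DMSO and 5.77, 6.15 and 5.50 after 100 nM, where the groups did not overlap, and the difference of -0.52 ± 0.21 (SE) had an adjusted p of 0.65.

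Whether the 100 nM response differed between the days was tested as the day 15 difference minus the day 8 difference. GRM2 passed, 1 of 47 receptor genes or 2.13%, against 2.44% of all genes, with 0.59 ± 0.14 (SE, adjusted p = 0.027). GRIA3 was at 0.46 (adjusted p = 0.11) and GRIN3B at -0.77 (adjusted p = 0.15). At an unadjusted p under 0.05 there were 6 of 47, against 14.4% of all genes. The GRM2 signal on day 8 was 11.10 ± 0.17 in DMSO and 10.41 ± 0.10 after 100 nM, and on day 15 it was 9.93 ± 0.06 and 9.83 ± 0.10 (SD, n = 3). The day 15 levels of both groups lay below the day 8 level of the treated group.

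**Figure D4:**
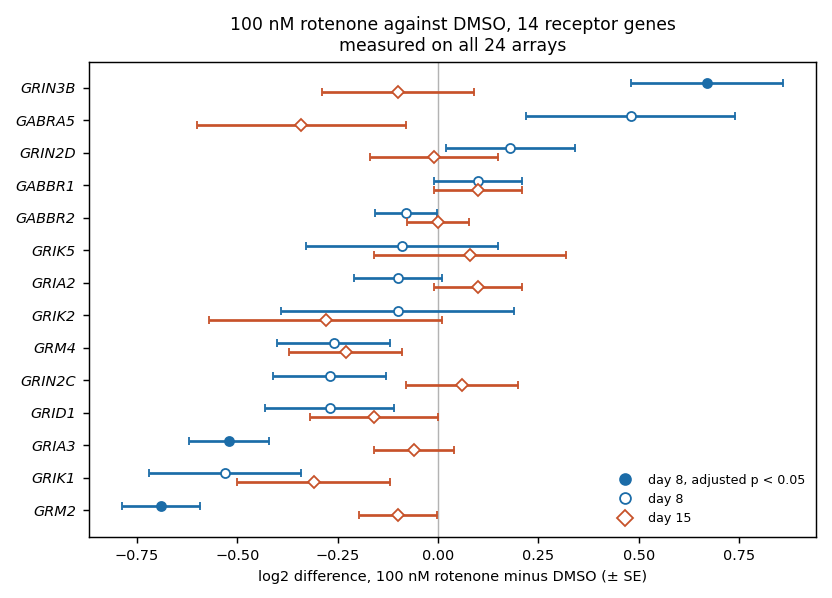
Log2 difference of 100 nM rotenone minus DMSO on day 8 (circles) and on day 15 (diamonds) for 14 of the 15 receptor genes measured on all 24 arrays, with bars of 1 SE and filled symbols where the adjusted p was under 0.05. On day 8 GRM2 (-0.69), GRIA3 (-0.52) and GRIN3B (0.67) are filled, and on day 15 no symbol is.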

How the data were processed

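Total RNA of 24 samples was hybridized in 1 color (Cy3) to Agilent 8x60K human expression arrays. The deposited intensities are median spot and local background signals as Feature Extraction wrote them (version 11.5.1.1 on slides 1 and 3, 12.0.0.7 on slide 2, per the file headers), with no normalization between arrays. A second deposited file holds the authors' own log2 values of 21733 probes, made in R with background correction, quantile normalization, a filter on dim probes and ComBat for the repeated slide, and it served as an alternative. No column of the authors' own comparisons was used.

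From the intensities, background was corrected with normexp (offset 0) and arrays were quantile normalized in limma 3.58.1 (R 4.3.3). Slide 1 as 1 batch and slides 2 and 3 as the other were then both adjusted with an own parametric ComBat that kept the 8 groups. A spot was kept if 3 or more arrays showed it above 1.1 times the negative controls' 95th percentile (59461 of 62976 spots), without readings flagged as outliers. Gene values are averages over probes, and probe values averages over spots. A gene counted as measured on an array where at least 1 of its probes had 0.5 or more of its spots well above background. A fold is given as at least a value where 1 group was not well above background on any array, against a dim group taken, on each array, at the higher of the gene's own signal and the dimmest signal marked well above background. No spot was saturated.

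One linear model with 8 group means was fitted to all 24 arrays (16 residual degrees of freedom), and limma's moderated tests of 8 contrasts were adjusted by Benjamini-Hochberg over 21239 genes. A gene was called at an adjusted p under 0.05. Every adjusted p in the text comes from such a limma fit. Full values were given for each receptor gene called in any contrast and for at most 1 further gene of a subfamily that was measured on all arrays. Of each list of partner genes, those with the smallest adjusted p in each direction were named, up to 2. The receptor genes and all lists were chosen with earlier results of these data known.

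The 84 pairs of same-numbered samples of different groups deviated together before ComBat (lowest correlation 0.171, median 0.458, against a median of -0.354 for different numbers), and a replicate number is also a slide number, so that a fit with the replicate number as a block in place of ComBat was an alternative. Others were the scanner's processed signal with 75th percentile scaling, an offset of 50, 75th percentile scaling, no correction of slide 1, a filter on spots well above background, no filter, the brightest probe, slides 2 and 3 alone, fits of only the arrays compared, and leaving out each array. The same alternatives were added for partner and marker genes after their results were seen. Values of some receptor and partner genes are not reported here by name and were left out of the plots, though they count in all totals. Promoters came from a RefSeq table (GRCh38.p14), matched by symbol. The test was also run on simulated arrays with independent normal noise, the same spread on all arrays and a shift of slide 1. They held no signals near background and no array of larger spread, so that the run does not cover these. With 3 arrays a group, their number limits the precision. The scan name of DMSO replicate 1 of day 15 does not name DMSO, and the sample was grouped by its label.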

Additional observations from a re-analysis of the deposited data

Results flagged for a closer look

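GRM2 was flagged because its response to 100 nM rotenone differed between the days. The log2 difference of 100 nM and DMSO was -0.69 on day 8 and -0.10 on day 15, so that the day 15 difference minus the day 8 difference was 0.59 ± 0.14 (SE), with an adjusted p of 0.027 in the limma fit. The value kept its sign under all 23 alternatives and ran from 0.49 to 0.65. It passed under 14 of them and did not under 9. These were no correction of slide 1 (adjusted p = 0.21), slides 2 and 3 alone (0.46), the arrays compared alone (0.14), and leaving out DMSO replicate 2 or 100 nM replicate 1 or 3 of day 8, or DMSO replicate 2 or 3 or 100 nM replicate 1 of day 15 (0.053 to 0.078). Groups of 3 arrays were too small for a check of single far-lying arrays.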

How the results depend on the processing

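Between the days in DMSO, 10 to 17 receptor genes passed under the alternatives other than leaving out an array, against 13 as reported, and 10 of the 13 passed under all 17 alternatives. On day 15 no receptor gene passed in any comparison with rotenone under any alternative, including leaving out each array (0 to 0). After 100 nM on day 8 the 3 genes became 1 without correction of slide 1, 5 with the filter on spots well above background and 0 with slides 2 and 3 alone. Other settings changed which genes passed. With the brightest probe GRID1 (-0.42, adjusted p = 0.04) and GRM8 passed and GRIA3 did not. GABRA5 and GRIK1 passed with the processed signal, and GABRA5 with 75th percentile scaling, while GRIA3 passed with neither. GRIN3B did not pass with the offset of 50 or with only the arrays compared. After 50 nM for 24 h on day 8 the 4 genes became 2 with the offset of 50, 1 without correction of slide 1, 0 with slides 2 and 3 alone and 0 with only the arrays compared. After 50 nM for 12 h the 1 gene became 2 with the offset of 50, the filter on spots well above background, the authors' table or the replicate block, and 0 with 75th percentile scaling, no correction of slide 1, the brightest probe, slides 2 and 3 alone or only the arrays compared. For the difference between the days in the 100 nM response, the 1 gene became 2 with the processed signal, and 0 without correction of slide 1, with slides 2 and 3 alone or with only the arrays compared.

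Leaving out 1 array gave 2 to 4 genes after 100 nM, 1 to 4 after 50 nM for 24 h (1 without DMSO replicate 1), 0 to 1 after 12 h, 12 to 15 between the days, and 0 to 1 for the difference between the days. The replicate block gave 3, 5, 14 and 1 genes in the comparisons other than 12 h and day 15. Slides 2 and 3 alone leave 2 arrays a group, and the causes of the other changes were not tested. No called receptor difference changed sign. The processed signal moved the median of all genes between the days from -0.04 to 0.15 and that of the receptor genes from 0.19 to 0.75. Some differences between the days varied in size by over 1.5 times: from the offset of 50 to the processed signal, which changes the signal and the scaling together, GRM3 ran from 1.54 to 3.95, GRIA4 from 0.64 to 2.61 and GRM8 from 0.51 to 2.16. The order of the largest rises also changed: GRM3 lay above GRIK1 with the processed signal (3.95 and 3.52) and in the authors' table (2.68 and 2.59), and GRIN3A (2.97) and GRM3 (2.83) above GRIK1 (2.69) with slides 2 and 3 alone. Of the GABA-A genes, GABRA5 passed between the days with the replicate block, 75th percentile scaling, the authors' table, the filter on spots well above background, only the arrays compared and the processed signal, GABRD with the last 2 of these, and GABRA3 and GABRR1 each when 1 array was left out. GLRA3, a glycine receptor subunit, passed with the processed signal.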

Other observations

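Receptor genes of 1 chromosome differed in detection. On chromosome 15, GABRA5 was measured on all 24 arrays and GABRG3 on 3. On chromosome 4, GABRB1 was measured on 22 arrays, GABRG1 on 3, GABRA2 on 1 and GABRA4 on none, and the rho genes GABRR1 and GABRR2 of chromosome 6 were measured on 5 and 3. These are counts of arrays with a signal well above background, which depend on each probe, and no test was made.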
